A study of Mus with 8 samples.

Results

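The 3 circRNAs described here were among the brightest on the control arrays and were dimmer in traumatic heterotopic ossification (HO). They are mmu_circRNA_018683 (probe ASCRP4005922) and mmu_circRNA_009370 (probe ASCRP4009159) on chromosome 17, and mmu_circRNA_20066 (probe ASCRP4007838) on chromosome 1. They were chosen as abundant members of the study's list of its most decreased circRNAs. There the chromosome 17 pair has no transcript and mmu_circRNA_20066 is assigned to DQ715306. They are 3 of the 14236 circRNAs with a probe on the array, and all 3 were among the 12813 circRNAs tested. The arrays measured tissue of male wild-type C57BL/6 mice, aged 15 to 17 weeks. In the HO group, Achilles tenotomy and a burn on the back had been made 9 weeks before, and the 4 samples are labelled heterotopic ossification tissue. Control mice had neither tenotomy nor burn, only a lengthwise cut in the skin, and the 4 samples of that group are labelled Achilles tendon. In both groups the tissue taken reached from the calcaneus up into the distal gastrocnemius, so that it can hold muscle, and each sample was hybridized to 1 array. The labels number the replicates but do not tie each to an animal, so the spread given below is that between these samples and may be technical in part.

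A circRNA is an RNA whose ends are joined to each other, mostly when a splice donor is joined to an acceptor that lies upstream of it. With no free end it resists RNase R, an exonuclease that degrades linear RNA and was used on these samples before labelling, and in cells it usually outlasts the linear transcripts of its host gene. Most circRNAs described so far come from exons of protein-coding genes. HO is bone that forms in soft tissue after injury, commonly through a cartilage stage.

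All 3 circRNAs are listed by the study as sense overlapping, a class for circRNAs that share the strand of a known locus without following its exons. The list gives a chromosome but no start and end, so no overlap with a repeat or a non-coding RNA gene was examined. DQ715306 matched no symbol, synonym or accession in the RefSeq table of mouse assembly GRCm38.p6, so the absence of a protein-coding host could not be checked for mmu_circRNA_20066. Of the genes in that table, 1133 of 2192 on chromosome 17 and 1774 of 2978 on chromosome 1 are not protein coding. Probe sequences were not analysed here.

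On the control arrays the 3 probes were bright and even. Ranked by the mean normalized intensity of the control arrays, mmu_circRNA_20066 stood at place 17 of 12813, mmu_circRNA_018683 at place 43 and mmu_circRNA_009370 at place 51. A rank compares spot brightness, which also depends on the probe, and is no count of molecules. Abundance was part of the choice of the 3 circRNAs, so their high places are given as a description only. On single control arrays mmu_circRNA_20066 was between places 13 and 28 of all 14236 circRNA probes by processed signal, mmu_circRNA_018683 between 35 and 54, and mmu_circRNA_009370 between 46 and 71. On the HO arrays the places were lower and far apart. For mmu_circRNA_20066 they were 49 on HO 3, 79 on HO 4, 235 on HO 1 and 1936 on HO 2. For mmu_circRNA_018683 they ran from 245 on HO 3 to 1902 on HO 2, and for mmu_circRNA_009370 from 393 on HO 3 to 1744 on HO 2. Together the 3 probes took 0.562% to 0.943% of the summed circRNA signal of a control array and 0.0296% to 0.331% of that of an HO array.

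**Figure D1:**
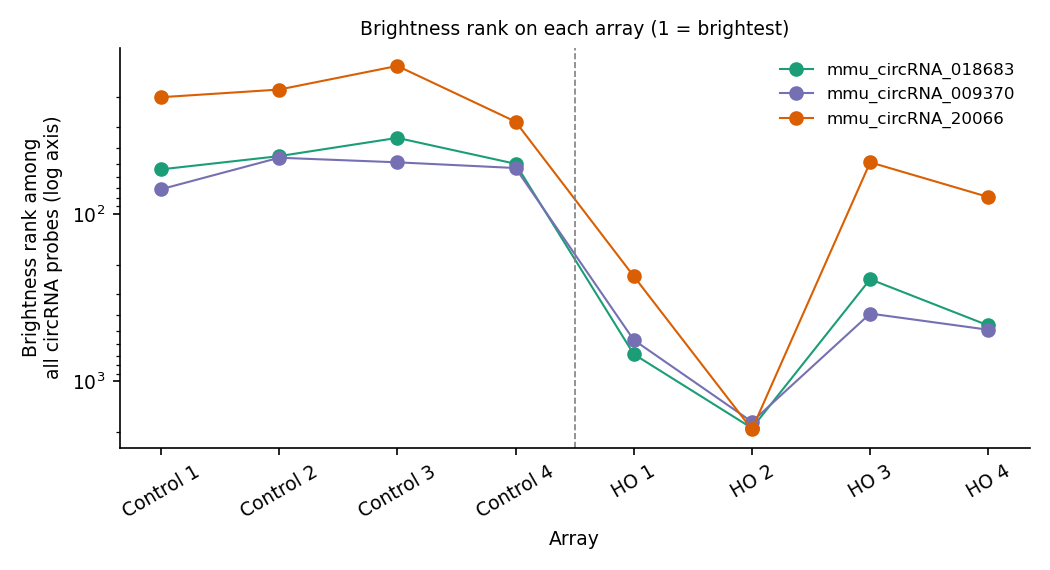
Brightness rank of the 3 circRNAs on each of the 8 arrays, on a log axis with rank 1 at the top, among all 14236 circRNA probes by processed signal; lines join the points of 1 circRNA. Every control rank is 71 or better, and on HO 2 all 3 circRNAs lie between 1744 and 1936.

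The spots themselves were of good quality on every array. All 3 circRNAs were well above background on all 8 arrays, and none of their spots was saturated or marked as an outlier. The weakest spots were those of HO 2, where the spot signal was still 12.8 to 14.2 times the local background, against 273 to 1170 times on the control arrays. The differences are thus between measured levels and are not bounds. Each array holds 1 spot per circRNA.

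The log2 normalized intensity of mmu_circRNA_018683 was 12.69, 12.87, 13.11 and 12.85 on control 1 to 4 and 9.57, 8.14, 10.89 and 10.14 on HO 1 to 4. The groups did not overlap, and the highest HO array lay 1.81 below the lowest control array on the log2 scale. The mean was 12.88 ± 0.17 (SD, n = 4) in control and 9.69 ± 1.16 (SD, n = 4) in HO, a difference of -3.20 (standard error 0.49), or 9.16-fold lower. Left on the HO arrays was 25.1% of the control mean on HO 3, 14.9% on HO 4, 10.1% on HO 1 and 3.74% on HO 2. No host gene is listed for this circRNA.

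For mmu_circRNA_009370, also without a listed host, the log2 normalized intensity was 12.35, 12.85, 12.79 and 12.79 on control 1 to 4 and 9.84, 8.28, 10.33 and 10.05 on HO 1 to 4. Here the gap between the groups was the widest of the 3, 2.02 on the log2 scale, although control 1 lay below the other control arrays. The mean was 12.70 ± 0.23 (SD, n = 4) in control and 9.62 ± 0.92 (SD, n = 4) in HO. The difference was -3.07 (standard error 0.40), or 8.40-fold lower. Between 13.9% and 19.4% of the control mean was left on HO 1, HO 3 and HO 4, and 4.67% on HO 2.

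The brightest of the 3, mmu_circRNA_20066, had a log2 normalized intensity of 13.74, 13.83, 14.15 and 13.55 on control 1 to 4 and of 10.92, 8.11, 12.83 and 12.42 on HO 1 to 4. HO 3 lay nearest to the control arrays, 0.71 below the lowest of them on the log2 scale, and HO 4 followed it, while HO 2 was far below. The mean was 13.82 ± 0.25 (SD, n = 4) in control and 11.07 ± 2.14 (SD, n = 4) in HO, a difference of -2.74 (standard error 0.88), or 6.69-fold lower. On HO 3 50.6% of the control mean was left and on HO 4 38.1%, but on HO 1 it was 13.5% and on HO 2 1.92%. Without HO 2 the difference was -1.78.

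**Figure D2:**
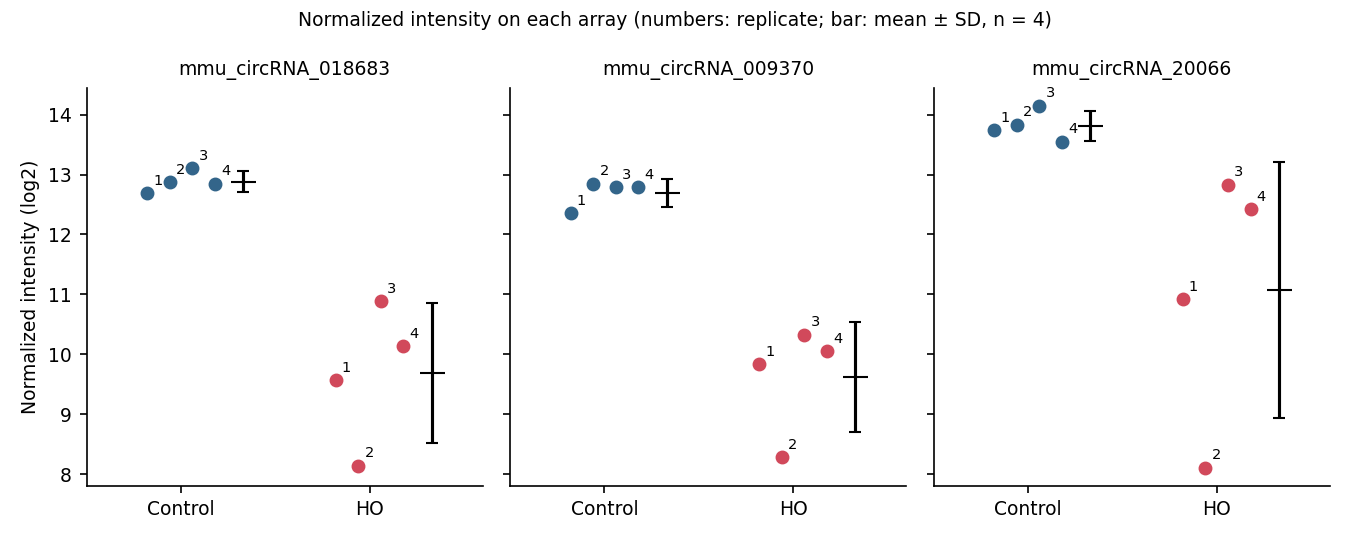
Log2 normalized intensity of each circRNA on the 4 control and 4 HO arrays, with the replicate number beside each point and the mean ± SD (n = 4) as a black bar. The HO points lie below the control points in each panel, and HO 2 is the lowest throughout.

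These differences are given without a test, since the list from which the circRNAs were taken was made by fold change and P value on the same arrays. The folds depend on the scaling. With each array scaled to its median in place of quantile normalization the differences were smaller in size, at -2.51 for mmu_circRNA_018683, -2.38 for mmu_circRNA_009370 and -2.12 for mmu_circRNA_20066 on the log2 scale. In the log2 values that the authors deposited, from which that list was made, the group means were 12.88 in control and 9.83 in HO for mmu_circRNA_018683, 12.59 and 9.70 for mmu_circRNA_009370, and 13.89 and 11.11 for mmu_circRNA_20066. All 3 had every HO array below every control array, as did 14.4% of the circRNAs tested. A difference of at least 4-fold lower, which all 3 reached, was seen in 1.08% of the circRNAs tested (139), and 23 were at least 4-fold higher. For mmu_circRNA_20066 this rests on HO 2, without which its difference of -1.78 was short of 4-fold. Over the 12813 circRNAs the median difference was 0.05 on the log2 scale. Among the 100 brightest by the mean over all 8 arrays, a choice that does not favour either group, 8 were at least 4-fold lower and 2 at least 4-fold higher, and their median difference was 0.13. Of the 8 that were lower, 4 are on the study's list of decreased circRNAs. Of the 3 only mmu_circRNA_20066 was among these 100. In tissue, fewer cells holding a circRNA and less of it per cell cannot be told apart.

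**Figure D3:**
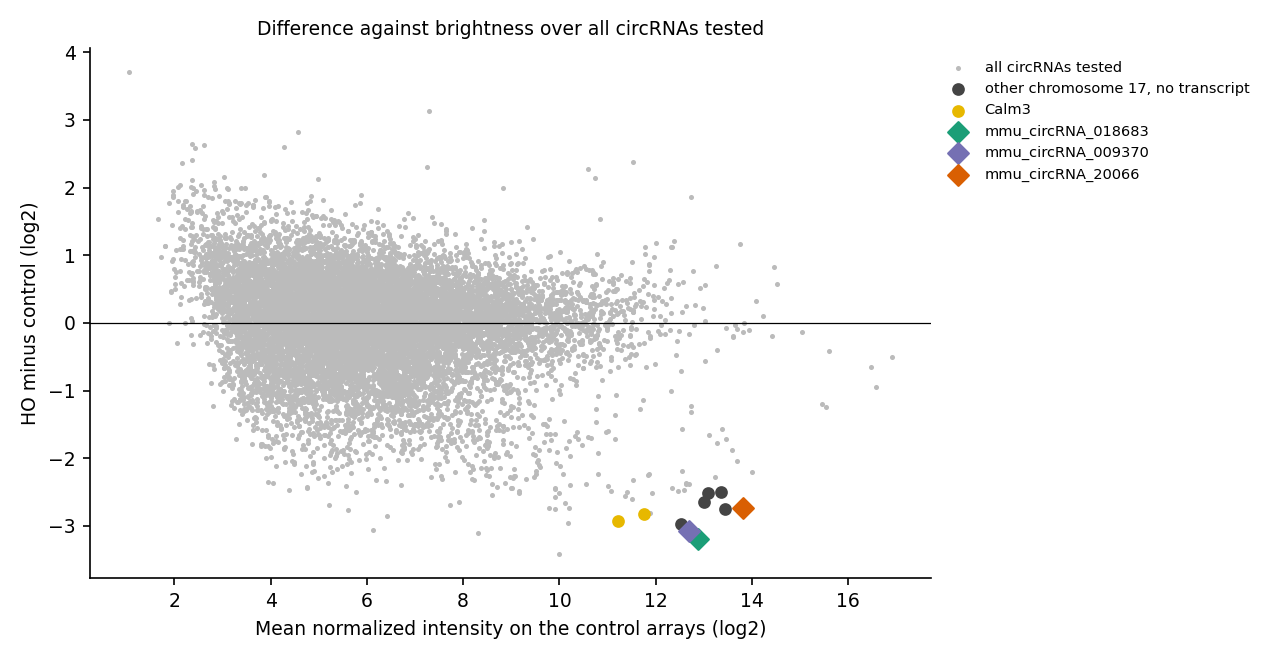
Difference between HO and control (log2) against the mean log2 normalized intensity on the control arrays for the 12813 circRNAs tested (grey), with the 3 circRNAs as diamonds and 7 others from the same list as filled circles. The 3 lie at the lower right, at differences of -3.20, -3.07 and -2.74, where few other bright circRNAs are found.

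HO 3 was scanned apart from the other 7 arrays. Without it, and so within 1 scan, the differences were -3.56 for mmu_circRNA_018683, -3.28 for mmu_circRNA_009370 and -3.32 for mmu_circRNA_20066. In the headers the barcode entry began with 1 for every HO array and with 2 for every control array. What this number marks was not checked, and any effect of it cannot be told apart from that of the group. Other measures moved with the groups as well. Between 9913 and 12109 circRNA probes were well above background on the HO arrays, fewest on HO 2, and between 12419 and 13839 on the control arrays. The array also carries 14 probes named circRNA control, of which 10 had every HO array below every control array and 2 had every HO array above, with differences from -2.0 to 0.61 on the log2 scale. Of 41 marker genes of muscle, tendon, bone, cartilage, blood, fat and endothelium, 1 has a linear probe on the array, so the labelled tissues could not be checked. It is Hspb7, a small heat shock protein of heart and skeletal muscle, whose log2 intensity was 10.02, 10.74, 10.69 and 10.79 on control 1 to 4 and 6.84, 6.93, 8.21 and 8.23 on HO 1 to 4. HO 3 and HO 4 were thus the higher HO arrays for Hspb7 and for all 3 circRNAs. The rest of the order differed, since Hspb7 was about as low on HO 1 as on HO 2, whereas all 3 circRNAs were clearly lowest on HO 2. The part of these measures in the lower intensities was not tested.

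Among the HO arrays the 3 circRNAs went up and down together. Each ran from high to low in the order HO 3, HO 4, HO 1 and HO 2, an order that 18% of the circRNAs with a value on all HO arrays also had. Among the control arrays they did not share an order. Control 3 was the highest for mmu_circRNA_018683 and mmu_circRNA_20066 and control 2 for mmu_circRNA_009370, and control 4 lay 0.09 above the control mean for mmu_circRNA_009370 but at -0.27 from it for mmu_circRNA_20066 on the log2 scale. After each value was centred on the mean of its group, Pearson's r over the 8 arrays was 0.951 between mmu_circRNA_018683 and mmu_circRNA_009370, with Spearman's rho 0.833. Between mmu_circRNA_018683 and mmu_circRNA_20066, which lie on different chromosomes, r was 0.978 and rho 0.905. Between mmu_circRNA_009370 and mmu_circRNA_20066 r was 0.947 and rho 0.786. These values are a description without a test, since the low HO 2 values that enter them also enlarged the differences by which the circRNAs were chosen, and all were read on the same arrays and normalized together.

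The extreme HO arrays weighed differently on the 3 pairs. Without HO 2 and HO 3, the arrays farthest from the median, r between mmu_circRNA_018683 and mmu_circRNA_20066 was 0.914, and without HO 2 alone 0.905. For mmu_circRNA_018683 and mmu_circRNA_009370 it was 0.655 without both arrays and 0.774 without HO 2, and for mmu_circRNA_009370 and mmu_circRNA_20066 it was 0.384 and 0.61. An r with mmu_circRNA_018683 as high as that of mmu_circRNA_009370 was found for 2.85% of the circRNAs with a value on all arrays, and as high as that of mmu_circRNA_20066 for 0.673%. For mmu_circRNA_009370 an r as high as that of mmu_circRNA_20066 was found for 1.19%. An r of at least 0.9 was found with 7.96% of 12756 other circRNAs for mmu_circRNA_018683, with 3.54% for mmu_circRNA_009370 and with 4.84% for mmu_circRNA_20066. Of the 6 probes most alike outside the lists of the study, 2 for each circRNA, 4 had a lower and 2 a higher mean in HO than in control. The most alike to mmu_circRNA_018683 was ASCRP4006918 (r = 0.997 over 8 arrays), whose difference was -1.36 on the log2 scale. For mmu_circRNA_20066 ASCRP4013895 (r = 0.996, difference -1.67), which was well above background on 6 arrays, was followed by ASCRP4007467 (r = 0.996, difference 0.34). Both probes most alike to mmu_circRNA_009370 were dim, with 6 and 4 arrays well above background. These probes have no circRNA name here.

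**Figure D4:**
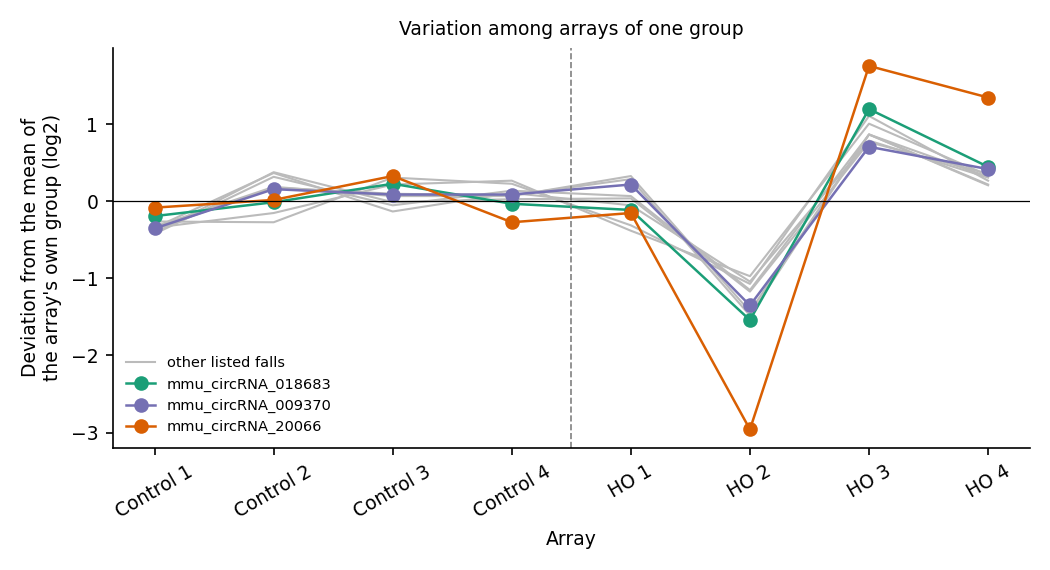
Deviation of each array from the mean of its own group (log2) for the 3 circRNAs (coloured) and for 7 others from the same list (grey); the dashed line parts control from HO arrays. The control arrays stay within 0.35 of their mean for the 3 circRNAs, whereas HO 2 lies 1.35 to 2.96 below and HO 3 0.71 to 1.76 above the HO mean.

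The HO arrays were more spread out than the control arrays for each of the 3. The SD in HO was 6.78 times that in control for mmu_circRNA_018683, 3.95 times for mmu_circRNA_009370 and 8.52 times for mmu_circRNA_20066. Over the circRNAs tested, 78.6% had a larger SD in HO than in control, with medians of 0.36 in HO and 0.24 in control. An SD ratio at least as high as that of mmu_circRNA_018683 was found for 1.7% of them, of mmu_circRNA_009370 for 6.52% and of mmu_circRNA_20066 for 0.929%. The mean distance from the group median was 0.83 in HO and 0.11 in control for mmu_circRNA_018683, 0.56 and 0.13 for mmu_circRNA_009370, and 1.55 and 0.17 for mmu_circRNA_20066. HO 2 carried much of this. The difference between the mean distances was 0.72 for mmu_circRNA_018683, 0.44 for mmu_circRNA_009370 and 1.38 for mmu_circRNA_20066, and without HO 2 it was 0.33, 0.03 and 0.47. Since HO 2 also enlarged the differences by which the circRNAs were chosen, the spread is given without a test.

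The study's list of decreased circRNAs holds 7 others, which were joined to probes and serve here only as a measure of scale, since they were chosen on the same arrays. Of these, 5 lie on chromosome 17 and have no transcript, like mmu_circRNA_018683 and mmu_circRNA_009370. Their mean log2 intensity on the control arrays lay between 12.53 and 13.44 (places 27 to 62), and their differences between -2.97 and -2.50. The other 2 come from Calm3 on chromosome 7 (chr7:16915379-16924032 in GRCm38.p6), a protein-coding host that encodes calmodulin, the calcium sensor. They were dimmer, at 11.21 and 11.75 on the control arrays, and their differences were -2.93 and -2.82. The group-centred values of the 5 chromosome 17 circRNAs correlated with those of mmu_circRNA_009370 at r from 0.949 to 0.995, with those of mmu_circRNA_018683 at 0.929 to 0.953, and with those of mmu_circRNA_20066 at 0.893 to 0.935. For the Calm3 circRNAs r was 0.857 and 0.858 with mmu_circRNA_009370, 0.942 and 0.953 with mmu_circRNA_018683, and 0.884 and 0.891 with mmu_circRNA_20066, given as a description over 8 arrays.

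Set beside these 7, mmu_circRNA_20066 had the widest range over the HO arrays. On HO 3 the 7 were left with 23.4% to 30.4% of their control means and on HO 4 with 15.8% to 22.7%, below the 50.6% and 38.1% of mmu_circRNA_20066. On HO 2 they were left with 4.58% to 8.54%, above the 1.92% of mmu_circRNA_20066. Their SD in HO was 0.78 to 1.02, whereas that of mmu_circRNA_20066 was 2.14. On HO 1 the values of mmu_circRNA_018683 (10.1%) and mmu_circRNA_009370 (13.9%) were below those of the 5 other chromosome 17 circRNAs (15.6% to 20.2%). The 2 Calm3 circRNAs were at 10.6% and 10.9% there, so mmu_circRNA_009370 lay within the range of the 7. The differences between circRNAs were not tested.

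**Figure D5:**
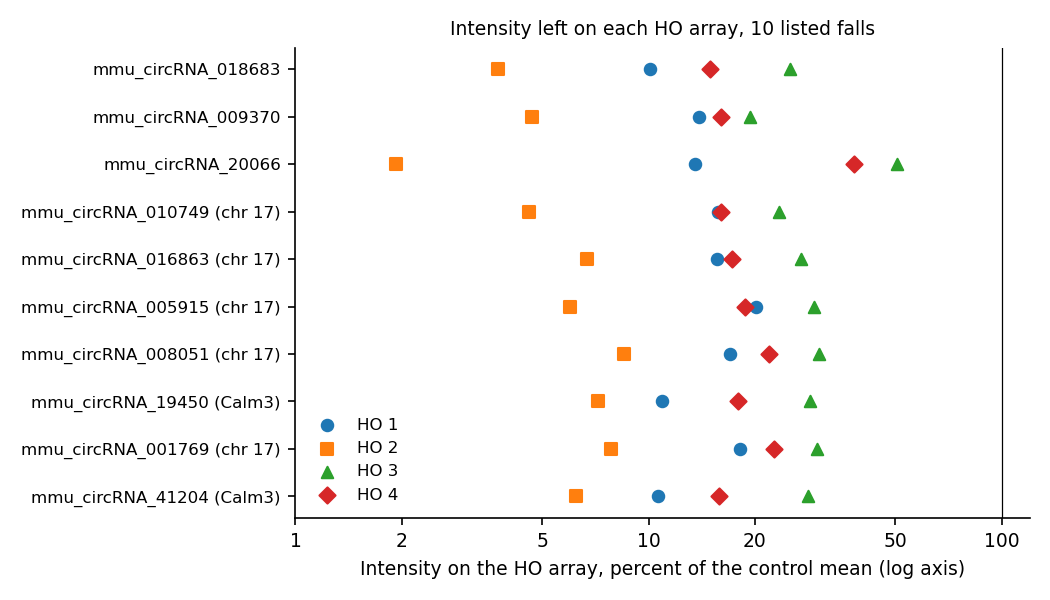
Normalized intensity left on each of the 4 HO arrays as a percent of the control mean, on a log axis, for the 3 circRNAs (top rows) and the 7 others of the list. HO 2 is the lowest array in every row, and mmu_circRNA_20066 spans the widest range, from 1.92% to 50.6%.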

How the data were processed

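The 8 arrays were 1-colour (Cy3) Agilent circRNA arrays, scanned and extracted by the authors with Agilent Feature Extraction 11.0.1.1, per the file headers. The deposited scanner files hold spot intensities on a linear scale, corrected for background but not scaled across arrays. A second table deposited by the authors holds quantile normalized log2 values of 14218 circRNA probes, whose background step is not given in the sources used here. Here, log2 processed signals of the circRNA probes were quantile normalized after spots marked as outliers were left out, and circRNAs were kept if 4 or more of the 8 arrays had them well above background. They were fitted with limma 3.58.1 in R 4.3.3 (no covariate, Benjamini-Hochberg adjustment). The fit was tested on simulated data, but no outcome of that is given here. The number of arrays limits precision. Exact permutation tests planned for the covariation and spread of the 3 circRNAs are not given, because the same arrays shaped the choice of the circRNAs. Each circRNA of the study's list was matched to the 1 probe whose deposited values gave its printed fold change and P value (relative tolerance 1e-05). Control and linear probes have 10 spots each, which were averaged after joint normalization with the circRNA probes, and 44 of 50 linear probes could be named through RefSeq accessions. The circRNAs and lists were chosen with earlier results of these data known. Named are the 3 circRNAs, the 7 others of the list, the probes most correlated with each of the 3 (at most 2 per direction by ID) and linear marker probes. Alternatives were other scalings, background corrections, filters and tests, the deposited values, a replicate block and each array left out.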

Additional observations from a re-analysis of the deposited data

Results flagged for a closer look

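Of 26 groups of 4 arrays examined for an array far from the others, 3 had one, and all 3 concern control 1. Chance gives about 1 in 20 for a single group. The groups share the same arrays and are not independent, so the count cannot be judged against that rate. For mmu_circRNA_009370 control 1 was the lowest control array, at 12.35 against 12.79 to 12.85 on the log2 scale, with a gap of 0.874 of the range of its group. Control 1 also had the fewest circRNA probes well above background among the control arrays, 12419 against 13698 to 13839 (gap 0.901), and the lowest intensity of the Hspb7 linear probe, 10.02 against 10.69 to 10.79 (gap 0.866). Without control 1 mmu_circRNA_009370 stood at place 46 by the control mean, against place 51 with it.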

How the results depend on the processing

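The 3 circRNAs stayed lower in HO under each of the 7 alternatives that recomputed their differences and with each array left out. They were chosen for being lower on these same arrays, so this is a description. The replicate block could not change their differences, and the deposited values are those from which the list was made. Across scalings, background corrections, deposited values, outlier spots kept and the replicate block, the log2 differences ran from -3.24 to -2.51 for mmu_circRNA_018683, from -3.11 to -2.38 for mmu_circRNA_009370 (-2.38 with median scaling) and from -2.89 to -2.12 for mmu_circRNA_20066, and with 1 array left out from -3.56 to -2.71, from -3.28 to -2.65 and from -3.32 to -1.78. Scaling to the 75th percentile moved the median of all circRNAs to -0.16 and median scaling to 0.15, and relative to these medians the 3 differences were -2.66, -2.52 and -2.26 under both. Over all circRNAs tested limma called 1759 lower and 1810 higher in HO at an adjusted p of at most 0.05, so 50.7% were higher. With 75th percentile scaling 3134 were lower and 1443 higher (31.5%), and with median scaling 1956 lower and 2925 higher (59.9%). Under a filter that required all 8 arrays 1143 were lower and 1749 higher. At 2-fold and an unadjusted p of 0.05 (chosen after seeing the data) limma gave 1102 lower, and no count of those higher is given for this rule. The methods' t-test called 982 lower and 614 higher at the thresholds of the methods, and 1188 lower and 1542 higher after Benjamini-Hochberg adjustment. Leaving out 1 array gave 758 (without control 4) to 2521 (without HO 3) lower and 976 to 2665 higher. Same-numbered arrays correlated at 0.47, 0.38, 0.73 and 0.09, and not every array was most like its own number. The replicate block gave 2712 lower and 3012 higher. With 1 array left out, r between group-centred values ran from 0.774 to 0.973 (mmu_circRNA_018683 and mmu_circRNA_009370), 0.905 to 0.992 (mmu_circRNA_018683 and mmu_circRNA_20066) and 0.61 to 0.972 (mmu_circRNA_009370 and mmu_circRNA_20066). The difference in mean distance from the group median then ran from 0.33 to 0.81, 0.03 to 0.56 and 0.47 to 1.45 for mmu_circRNA_018683, mmu_circRNA_009370 and mmu_circRNA_20066. For mmu_circRNA_018683 it was 0.74 after scaling to the 75th percentile, 0.69 after scaling to the median and 0.68 with outlier spots kept. Where a value or call moved, the cause was not tested.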
